A study of Homo sapiens with 8 samples.

Results

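The comparison described here sets control 143B cells against control HOS cells: 2 libraries labelled 143B NC and 2 labelled HOS NC, which are 4 of the 8 libraries of the series. Both are established human osteosarcoma cell lines, and the labels give no treatment, time or vector beyond NC. The other 4 libraries carry the label sgNAT10, a guide against the RNA acetyltransferase gene NAT10, and enter only where stated. Polyadenylated RNA was sequenced from libraries made by the BGISeq-500 protocol, per the labels. Nothing in the labels tells whether the paired libraries were grown as separate cultures, and each p-value here rests on the variation between these libraries alone, which may be technical. The values of each line stand in a table of that line alone, so the line and its table cannot be told apart.

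As background, 143B is a transformed derivative of HOS that was selected for loss of thymidine kinase activity, and it is more aggressive in mice than its parent. RAS proteins are GTP switches that pass growth signals through RAF and MEK to the kinase ERK. ERK in turn raises early transcription factors of the FOS and JUN families (the AP-1 factors), its own feedback inhibitors (Sprouty proteins and dual-specificity phosphatases) and proteases that break down matrix. RAS transformation of mesenchymal cells is also known for loss of collagen, fibronectin and the contractile actin apparatus.

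Values are FPKM (fragment counts normalized to transcript length and library size), brought to a common scale over the 4 libraries by median ratios. NAT10, the gene the series targets, was at 21.4 and 19.5 scaled FPKM in 143B NC and at 13.04 and 13.95 in HOS NC. In the sgNAT10 libraries it was at 13.4 and 9.09 in 143B and at 15.2 and 13.9 in HOS. Between the control groups, which did not overlap, the difference on the log2(scaled FPKM + 1) scale was 0.56 ± 0.24 (SE), and it missed the threshold (adjusted p = 0.059, limma). It passed without 143B NC 1 (0.52, adjusted p = 0.006) or without 143B NC 2 (0.64, adjusted p = 0.00043), missed it after the correction for base composition given below (0.25, adjusted p = 0.085), and was 0.06 with scaling to a common sum.

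Of 12700 genes listed for 143B and 12810 for HOS, 11807 stood in both tables, and 11349 of those reached 1 scaled FPKM in at least 2 of the 4 libraries and were tested. At an adjusted p under 0.05, 8420 genes (74.2%) differed between the lines, 4230 higher in 143B (37.3%) and 4190 lower (36.9%). At least 2-fold on the log2(scaled FPKM + 1) scale, 6141 genes (54.1%) differed. Counts in a gene group are to be read against these shares. With a library left out or another scaling, the shares over all genes and the number of members tested changed too. Counts of a group under those settings are thus not to be read against these shares, nor a change in them as a trait of the group. Without HOS NC 1 the count of differing genes was 4039 and without HOS NC 2 it was 4955. Without scaling, 41.0% of the differing genes were higher in 143B and with scaling to a common sum 38.3%, against 50.2% as scaled. The median difference of all genes was -0.02 as scaled, -0.34 without scaling and -0.46 with a common sum.

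The differences followed the base composition of the transcripts. Across 11237 genes with a known transcript, the log2 difference between the lines and GC content had a Pearson correlation of 0.757, given as a description of genes that share libraries. The median difference was -1.28 in the lowest of 5 equal bins of GC content (30.2% to 41.3%) and 1.64 in the highest bin (59% to 74.7%). The 2 libraries of a line differed along the same axis: the correlation of GC content with 143B NC 1 minus 143B NC 2 was 0.757, and with HOS NC 1 minus HOS NC 2 it was -0.688. Of the 143B libraries, NC 1 lay farther from HOS (Pearson correlations of log2 values of 0.695 and 0.741) than NC 2 did (0.786 and 0.822). The part of base composition in the differences was not tested beyond a correction, which took from each library a smooth trend with transcript length and GC content and would also take away any biology that follows them. After it, 7294 of 11237 genes differed (64.9%), of which 3595 were higher in 143B (32.0% of those tested) and 3699 lower (32.9%), and 2382 (21.2%) differed at least 2-fold. Without HOS NC 1 the corrected count was 4576 and without HOS NC 2 it was 4842. Both fits called 4607 genes in the same direction, and 793 in opposite directions. The value after this correction is therefore given beside each result as the corrected difference.

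**Figure D1:**
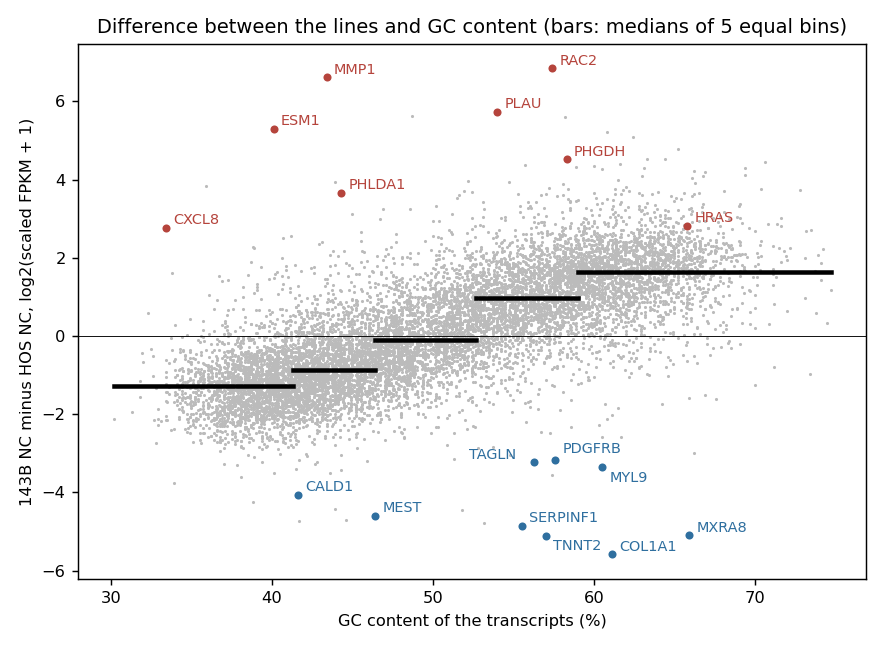
Each point is 1 of the tested genes, with the GC content of its transcripts (%) on the horizontal axis and 143B NC minus HOS NC on the log2(scaled FPKM + 1) scale on the vertical axis. Black bars are the medians of 5 equal bins of GC content, from -1.28 to 1.64, and the named genes in red (higher in 143B) and blue (lower) lie far from the bar of their bin, apart from HRAS, which is close to it.

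Of the RAS genes HRAS and NRAS, only HRAS passed the threshold as scaled, and after the correction both were higher in 143B. HRAS, from the gene-rich and GC-rich end of chromosome 11, was at 316 and 168 scaled FPKM in 143B and at 29.8 and 33.6 in HOS, a log2 difference of 2.82 ± 0.34 (adjusted p = 0.00015) and a corrected one of 1.11. NRAS stood at 17.3 and 22.04 in 143B and at 32.2 and 26.2 in HOS, and its difference of -0.55 ± 0.26 missed the threshold (adjusted p = 0.085). After the correction the sign of NRAS turned, to 0.72 (adjusted p = 0.0016). KSR1, a scaffold that brings RAF, MEK and ERK together, was lower in 143B, at 1.96 and 1.91 scaled FPKM against 23.1 and 23.4, with a log2 difference of -3.04 ± 0.23 (adjusted p = 3.0e-05) and a corrected one of -3.89.

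Of the 30 tested components of the RAS and RAF pathway (RAS genes, exchange factors, GTPase activators, RAF, MEK and ERK), 9 were higher in 143B and 14 lower, with a median of -0.50, against 12 higher, 9 lower and a median of 0.157 after the correction. With scaling to a common sum, 6 were higher and 19 lower, and the counts were 5 and 6 without HOS NC 1 and 6 and 8 without HOS NC 2. The sign of the group's median thus turned with the correction, while HRAS was higher and KSR1 lower in every library of 143B than in any of HOS.

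**Figure D2:**
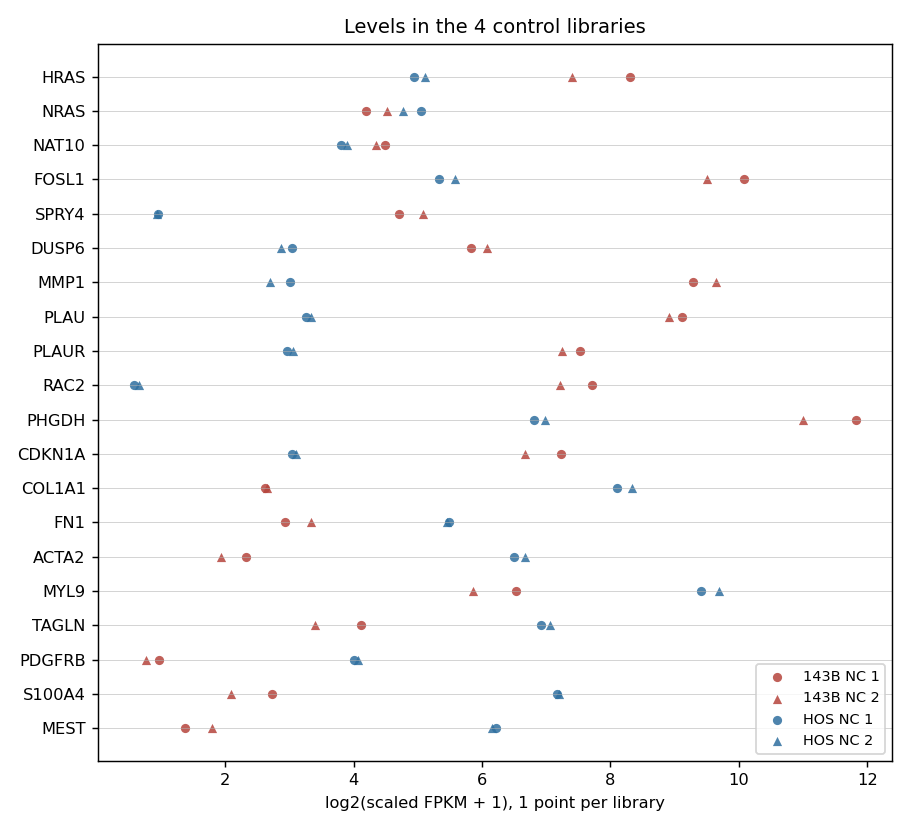
Points give log2(scaled FPKM + 1) in the 4 control libraries for 20 genes of the text, red for 143B and blue for HOS, circles for replicate 1 and triangles for replicate 2. Apart from NRAS and NAT10, which lie close together, the 2 red points of a gene stand well clear of the 2 blue ones, to the right for HRAS and for FOSL1 to CDKN1A and to the left for COL1A1 to MEST.

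Feedback and output genes of ERK were mostly higher in 143B. Of 26 tested, 20 were higher and 2 lower, with a median log2 difference of 1.71 beside -0.02 over all genes. After the correction 18 were higher and 4 lower, with a median of 1.05 beside -0.01 over all genes. SPRY4, a Sprouty protein that dampens RAS signalling, was at 25.1 and 33.0 scaled FPKM in 143B and 0.930 and 0.920 in HOS (log2 difference 3.95 ± 0.24, corrected 3.53). DUSP6, the phosphatase that removes the activating phosphates from ERK, was at 55.8 and 66.3 against 7.25 and 6.34 (2.99 ± 0.25, corrected 3.44). PHLDA1, an early response gene, was at 65.0 and 66.8 against 4.09 and 4.47 (3.66 ± 0.24, corrected 4.39). DUSP6 and PHLDA1, with GC contents of 46.7% and 44.3%, gained size under the correction, and SPRY4, at 52.2%, lost little.

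Further named members of that group also passed in both fits. DUSP5, a nuclear ERK phosphatase, was at 106 and 90.1 scaled FPKM against 7.70 and 8.71 (log2 difference 3.42 ± 0.25, corrected 2.44). ETV4 and ETV5, ETS factors induced by ERK, had differences of 3.51 ± 0.30 and 2.01 ± 0.24, and corrected ones of 2.02 and 2.18. DUSP4, another ERK phosphatase, was 2.08 ± 0.25 higher (corrected 1.79), and the survival gene IER3 2.77 ± 0.29 higher (corrected 1.49). DUSP10, a phosphatase that prefers the stress kinases p38 and JNK, was lower in 143B, at 0.254 and 0.419 scaled FPKM against 2.20 and 2.12 (-1.24 ± 0.16, corrected -0.64). Among the 9 ERK genes named, the highest adjusted p was that of DUSP10, at 0.00023 as scaled and 0.0043 after the correction. In the whole list 17 were higher and 1 lower with either HOS library left out.

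Several early transcription factors were higher in 143B. FOSL1 (FRA-1), a FOS family member known from RAS-transformed cells, was at 1084 and 729 scaled FPKM in 143B and at 39.2 and 47.0 in HOS, a 21.03-fold ratio of means (log2 difference 4.34 ± 0.30, adjusted p = 2.4e-05, corrected 2.90). JUN, its usual partner, was at 140 and 119 against 16.1 and 16.5 (2.91 ± 0.26, corrected 1.86). KLF2, a zinc finger factor best known in endothelial and T cells, was at 83.5 and 64.1 against 1.59 and 1.78 (4.79 ± 0.25, corrected 3.07). BATF3, MAFF and IER2 were higher by 3.15, 3.27 and 3.64, with corrected differences of 1.57, 1.90 and 2.11. Of 21 tested members of the list, 11 were higher and 5 lower in 143B, and after the correction 11 and 6. Leaving out either HOS library gave 9 and 1.

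Plasminogen activation, the proteolytic system in which urokinase bound to its receptor turns plasminogen into plasmin at the cell surface, was higher in 143B at several steps. PLAU (urokinase) was at 555 and 483 scaled FPKM in 143B and at 8.53 and 9.08 in HOS, a 59.0-fold ratio of means (log2 difference 5.73 ± 0.26, adjusted p = 5.2e-06, corrected 5.04). Its receptor gene PLAUR was at 182 and 150 against 6.77 and 7.35 (4.37 ± 0.26, adjusted p = 1.4e-05, corrected 3.41). PLAT, the tissue-type activator, was at 71.7 and 61.8 against 19.4 and 21.7 (1.65 ± 0.26, corrected 0.86). So both activators and the receptor were higher in both 143B NC libraries than in either HOS NC library. SERPINF1, which the list also holds, went the other way, with a log2 difference of -4.86 ± 0.27 (corrected -5.79). Of 8 tested members of this list, 5 were higher and 2 lower in 143B, and after the correction 6 and 1, and leaving out either HOS library gave 4 and 1.

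The promoter of PLAUR is shown because it is the member with the largest difference whose window in the RefSeq promoter table holds an AP-1 motif. The stretch is the 250 bases before the start site, chr19:43670170-43670419 on the minus strand of GRCh38.p14, and the capitals mark TGANTCA, searched on both strands (the letters read the same on both), which begins 186 bases before the start.

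PLAUR: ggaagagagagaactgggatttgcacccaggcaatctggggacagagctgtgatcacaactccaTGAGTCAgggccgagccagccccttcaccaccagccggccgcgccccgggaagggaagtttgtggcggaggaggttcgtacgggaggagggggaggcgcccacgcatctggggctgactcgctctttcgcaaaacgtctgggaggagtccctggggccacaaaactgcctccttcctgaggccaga

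That motif occurs in 7.71% of 35116 RefSeq promoter windows of 300 bases (250 before the start site and 50 after it). In the list, 9 windows of 5 genes were searched, and 4 of these windows (44.4%), which belong to 3 genes, held it. Among ERK feedback and output genes 2 of 32 windows (6.25%) held it, and among early transcription factors 1 of 19 (5.26%). Among metalloproteinases and inhibitors it was 1 of 12 (8.33%). No window of PLAU holds the motif, which is only a match of letters.

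Matrix metalloproteinases were split. MMP1, the collagenase that cuts fibrillar collagen, was at 621 and 804 scaled FPKM in 143B and at 7.06 and 5.50 in HOS, a 114-fold ratio of means (log2 difference 6.61 ± 0.28, adjusted p = 4.6e-06, corrected 7.46). MMP14, which anchors in the membrane and activates MMP2, was at 71.1 and 56.6 against 14.3 and 15.7 (2.01 ± 0.26, corrected 0.71). MMP2 itself went the other way, at 13 and 9.58 against 30.7 and 35.5 (-1.48 ± 0.26, corrected -2.52), as did its inhibitor TIMP2 (-1.75 ± 0.25, corrected -2.38). The membrane proteases ADAM19 and ADAM9 differed in opposite directions, by 2.51 and -3.22, and by 1.83 and -2.0 after the correction. Over the 19 tested members 7 were higher and 7 lower, and after the correction 4 and 11. Leaving out either HOS library gave 6 and 4. MMP9, a gelatinase, is 1 of 3 members listed for 143B alone, at 6.74 and 5.02 FPKM, and another 3 are listed for HOS alone.

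Other genes with the largest differences upwards belong to many classes. RAC2, a small GTPase normally found in blood cells, was at 209 and 148 scaled FPKM in 143B and at 0.5002 and 0.576 in HOS, a 332-fold ratio of means and the largest log2 difference before the correction, 6.85 ± 0.27 (adjusted p = 4.6e-06). Its corrected difference was 5.67, smaller than those of MMP1 and COL1A1. ETFB, an electron carrier of mitochondrial fat oxidation, was at 192 and 93.7 against 1.81 and 1.69 (5.62 ± 0.34, corrected 5.77). FOXA2, a factor of endoderm, was at 69.7 and 47.3 against 0.255 and 0.163 (5.60 ± 0.26, corrected 4.34). All 3 were under 2 scaled FPKM in both HOS libraries.

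ESM1, a secreted proteoglycan of activated endothelium, was at 54.0 and 88.5 scaled FPKM against 0.728 and 0.843 (5.30 ± 0.29, corrected 6.45). TIE1, an endothelial receptor kinase, was at 58.8 and 38.1 against 0.193 and 0.396 (5.23 ± 0.27, corrected 3.76). PLPP2, a lipid phosphatase, was at 276 and 146 against 4.83 and 4.93 (5.10 ± 0.33, corrected 3.50). Among the 15 largest differences upwards were also ANGPTL4, CITED1 and VGF, between 4.41 and 4.54, with corrected differences between 2.68 and 2.88. Of the defining endothelial markers, PECAM1 and CDH5 are listed for HOS alone at under 1 scaled FPKM and VWF in neither table.

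**Figure D3:**
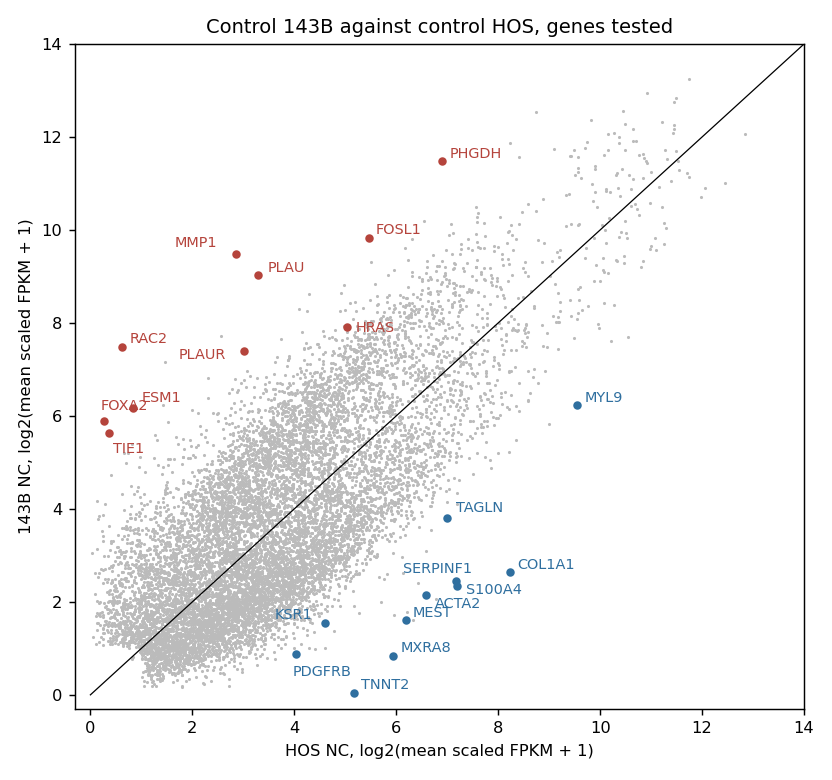
Each point is 1 of the 11349 tested genes, with log2 of the mean scaled FPKM plus 1 in HOS NC on the horizontal axis and in 143B NC on the vertical axis, and the line marks equal levels. RAC2, MMP1, PLAU and FOSL1 (red) stand far above the line, and COL1A1, TNNT2, MXRA8 and MYL9 (blue) far below it.

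Fibrillar collagen was much lower in 143B. COL1A1, the main chain of bone collagen, was at 5.13 and 5.31 scaled FPKM in 143B and at 275 and 323 in HOS, 57.4-fold lower by the means (log2 difference -5.59 ± 0.26, adjusted p = 5.2e-06, corrected -7.12). Its partner chain COL1A2 and the fibrillar chain COL3A1 are listed for HOS alone, at 68.6 and 82.2 and at 96.1 and 110 FPKM. COL5A2, which sets the width of collagen fibrils, was lower by 2.34 ± 0.24 on the log2 scale (corrected -2.11), and COL12A1, which binds to the fibrils, by 2.43 ± 0.28 (corrected -1.98). COL13A1, a collagen anchored in the membrane, was higher, at 32.4 and 25.8 against 1.52 and 1.88 (3.47 ± 0.25, corrected 2.17). Of 22 tested collagens and collagen-modifying genes, 3 were higher and 9 lower, and after the correction 2 and 16. The counts were 2 and 7 without HOS NC 1, and 6 and 10 without 143B NC 2. Another 7 of the list are listed for HOS alone and 1 for 143B alone.

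Other matrix genes shared this direction in part. FN1 (fibronectin) was at 6.65 and 9.12 scaled FPKM in 143B and at 43.7 and 42.9 in HOS (-2.33 ± 0.26, corrected -2.47). NID2, a basement membrane linker, was at 0.908 and 1.15 against 8.04 and 7.79 (-2.14 ± 0.20, corrected -2.53). SDC2, a cell surface proteoglycan, was at 2.27 and 2.65 against 76.8 and 70.2 (-4.43 ± 0.24, corrected -3.60). LAMB3, a laminin chain of epithelial basement membranes, was higher in 143B, at 66.9 and 47.7 against 1.74 and 2.03 (4.32 ± 0.26, corrected 3.01). Over 32 tested matrix proteins 11 were higher and 9 lower, and after the correction 8 and 18. With either HOS library left out, the counts were 5 and 5. LUM (lumican) and MATN2 (matrilin), 2 more matrix genes, are listed for HOS alone, LUM at 75.6 and 66.6 FPKM.

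The actin and contractile genes that mark myofibroblasts and smooth muscle were lower in 143B. Of 19 tested, 12 were lower and 2 higher as scaled, with a median log2 difference of -1.25, and after the correction 17 were lower and 2 higher, with a median of -1.90. Without 143B NC 2, 6 were higher. ACTA2 (smooth muscle actin) was at 3.99 and 2.82 scaled FPKM in 143B and at 89.3 and 101 in HOS (-4.46 ± 0.26, adjusted p = 1.4e-05, corrected -4.82). MYL9, the light chain of its myosin, was at 90.9 and 57.0 against 677 and 823 (-3.36 ± 0.32, corrected -4.81). TAGLN (SM22) was at 16.4 and 9.60 against 120 and 133 (-3.23 ± 0.30, corrected -4.27). Fragments of ACTA2 and ACTG2, near-identical genes, may have been split by the counting, so their separate values are uncertain.

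CALD1 (caldesmon) was at 2.75 and 5.87 scaled FPKM against 93.9 and 75.4 (-4.07 ± 0.32, corrected -3.01). The tropomyosins TPM1 and TPM4 were lower by 3.20 and 1.98 on the log2 scale (corrected -2.63 and -1.90), calponin CNN3 by 2.64 (corrected -2.07) and the myosin MYH10 by 2.33 (corrected -2.26). ACTG2 was lower by 2.34 (corrected -2.84). SMTN (smoothelin), a further actin-binding protein of the list, was higher in 143B instead, at 144 and 84.7 against 6.85 and 8.61 (3.68 ± 0.31, corrected 2.04). CNN1, the smooth muscle calponin, is listed for HOS alone, at 13.6 and 15.6 FPKM. Every gene of this list named with values in both lines, apart from SMTN, was thus lower in each 143B library than in each HOS library.

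Serum response factor, the regulator of this gene class, binds a motif known as the CArG box. Promoters of 2 members that were lower in 143B and hold the motif are shown, the 250 bases before the start site in GRCh38.p14: ACTG2 at chr2:73892758-73893007 and TPM4 at chr19:16067288-16067537, both on the plus strand, with the CArG boxes (searched on both strands) in capitals.

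ACTG2: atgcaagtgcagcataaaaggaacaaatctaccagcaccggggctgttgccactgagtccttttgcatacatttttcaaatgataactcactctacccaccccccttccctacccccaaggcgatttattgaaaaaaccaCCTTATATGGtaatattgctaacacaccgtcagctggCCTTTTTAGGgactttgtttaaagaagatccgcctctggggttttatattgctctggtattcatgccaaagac

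TPM4: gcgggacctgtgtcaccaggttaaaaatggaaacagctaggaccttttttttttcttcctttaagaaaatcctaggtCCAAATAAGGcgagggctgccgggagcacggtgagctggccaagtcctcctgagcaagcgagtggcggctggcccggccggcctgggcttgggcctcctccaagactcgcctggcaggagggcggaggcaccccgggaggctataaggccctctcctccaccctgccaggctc

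ACTG2 holds 2 matches, which begin 110 and 73 bases before the start site, and TPM4 holds 1, which begins 173 bases before it. The motif is in 1.29% of all RefSeq windows of 300 bases and in 7 of the 35 windows of this list, which come from 17 genes. SMTN, which was higher in 143B, is among those with the motif, so the match does not separate the members by direction.

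Further genes with the largest differences downwards included several of mesenchymal and secretory cells. TNNT2 (cardiac troponin T) was at 0.0667 scaled FPKM and at 0 in 143B and at 34.0 and 35.7 in HOS (-5.12 ± 0.22, adjusted p = 4.6e-06, corrected -6.23). MXRA8, a matrix remodelling receptor, was at 0.894 and 0.693 against 54.6 and 66.7 (-5.10 ± 0.25, corrected -6.82). SERPINF1 (PEDF), a secreted factor that limits vessel growth, was at 4.88 and 3.27 against 144 and 145 (-4.86 ± 0.27, corrected -5.79). S100A4, a calcium-binding protein often used as a fibroblast marker, was at 5.62 and 3.24 against 143 and 145 (-4.78 ± 0.29, corrected -5.16). These 4 genes have GC contents of 53.2% or more and were lower in 143B against the direction of the trend, so the correction enlarged each difference.

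GPNMB (osteoactivin), a membrane glycoprotein of bone and pigment cells, was at 1.96 and 2.15 scaled FPKM against 76.4 and 81.5 (-4.71 ± 0.24, corrected -3.97). MEST, an imprinted gene of mesoderm, was at 1.59 and 2.48 against 73.2 and 70.4 (-4.60 ± 0.26, corrected -4.12). WSB1, part of a ubiquitin ligase, had a difference of -4.74 (corrected -3.71), MUT, the methylmalonyl-CoA mutase, of -4.25 (corrected -3.0), CENPQ, a kinetochore protein, of -3.77 (corrected -2.38) and EDIL3, a secreted integrin ligand, of -3.60 (corrected -2.32). QPRT, an enzyme of NAD synthesis, was at 3.34 and 1.43 against 36.8 and 38.2 (-3.57 ± 0.30, corrected -4.73).

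Few genes of low GC content were higher in 143B by a wide margin, and few GC-rich ones lower. Among 3946 genes under 45% GC, 16 were higher by at least 2 on the log2 scale in both fits, MMP1, ESM1, PHLDA1, CXCL8 and CDH11 among them. Among 3694 genes over 55% GC, 18 were lower by at least 2 in both fits, among them COL1A1, MXRA8, TNNT2, SERPINF1, MYL9, TAGLN, PDGFRB and QPRT. These sets were defined after the values were seen and are a description.

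Receptors and ligands did not move together. PDGFRB, the platelet-derived growth factor receptor of fibroblasts and pericytes, was at 0.961 and 0.702 scaled FPKM in 143B and at 15.1 and 15.8 in HOS (-3.17 ± 0.22, adjusted p = 2.3e-05, corrected -4.36). DDR2, a receptor for fibrillar collagen, was at 1.80 and 2.41 against 20.5 and 17.2 (-2.68 ± 0.24, corrected -1.67). FGFR4 and TYRO3, receptor kinases for fibroblast growth factors and for GAS6, were higher by 3.63 ± 0.29 and 2.82 ± 0.29 (corrected 2.0 and 2.22). Of 24 tested receptor kinases and ligands outside the EGF family 7 were higher and 8 lower, and after the correction 6 and 10. The counts were 3 and 5 with either HOS library left out.

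The WNT list held genes of both directions. WNT7B, a ligand, was at 83.7 and 54.2 scaled FPKM in 143B and at 2.95 and 3.02 in HOS (4.10 ± 0.28, adjusted p = 2.3e-05, corrected 2.5), and FZD8, a receptor, at 15.6 and 10.5 against 0.790 and 0.619 (3.02 ± 0.24, corrected 1.35). The nuclear partners of beta-catenin LEF1 and TCF7 were higher by 2.36 and 2.62 (corrected 1.97 and 1.51). Over 19 tested members 9 were higher and 6 lower, with a median of 0.54, and after the correction 11 and 7, with a median of 0.83. Leaving out either HOS library gave 7 and 2, and leaving out 143B NC 2 gave 5 and 7.

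ID1 and ID3, inhibitors of basic helix-loop-helix factors that BMP signals induce, are counted in the osteoblast list given below. They were at 336 and 203 and at 564 and 333 scaled FPKM in 143B. In HOS they were at 32.4 and 36.8 and at 30.2 and 30.7 (log2 differences 2.89 ± 0.31 and 3.79 ± 0.32, corrected 1.61 and 2.66). In the TGF-beta and BMP list, the BMP antagonist NOG was higher, at 15.9 and 11.7 against 0.834 and 0.869 (2.98 ± 0.23, corrected 1.59). The antagonist GREM1 was lower, at 3.36 and 6.34 against 37.7 and 31.8 (-2.65 ± 0.30, corrected -1.53). TGFB1, the ligand, was higher by 2.46 ± 0.33 (corrected 0.83). Of 24 tested members of the TGF-beta and BMP list 14 were higher and 6 lower, and after the correction 12 and 3. The counts were 10 and 2 without HOS NC 1 and 12 and 3 without HOS NC 2.

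Bone lineage genes gave no single direction. RUNX2, the master factor of osteoblasts, was low in both lines, at 0.507 and 0.975 scaled FPKM in 143B and at 2.71 and 2.71 in HOS (-1.10 ± 0.19, adjusted p = 0.00078), and its corrected difference of -0.23 missed the threshold (adjusted p = 0.14). DLX5, a homeobox factor of bone, was at 6.37 and 7.49 against 0.246 and 0.284 (2.65 ± 0.19, corrected 1.95). ID1 and ID3, given above, belong to this list and were higher in 143B. Over 21 tested osteoblast genes 8 were higher and 7 lower, with a median of 0.41 as scaled, 0.65 after the correction and -0.12 with scaling to a common sum. Leaving out either HOS library gave 8 and 2. BMP2 and PHOSPHO1, a mineralization enzyme, are listed for 143B alone, at 1.87 and 2.66 and at 3.32 and 2.82 FPKM, and 1 other member for HOS alone.

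Of the mesenchymal transition genes, SNAI1, a repressor of E-cadherin, was higher in 143B, at 14.3 and 10.8 scaled FPKM against 1.05 and 0.912 (2.76 ± 0.23, corrected 1.49). ZEB2, another such repressor, was lower, at 0.507 and 1.10 against 6.67 and 5.50 (-1.99 ± 0.23, corrected -0.80). CDH11, the cadherin of osteoblasts, was at 4.78 and 7.15 against 0.412 and 0.301 (2.34 ± 0.22, corrected 3.24). Among 18 tested members 6 were higher and 9 lower, and after the correction 5 and 7. The counts were 4 and 5 without HOS NC 1. EZR (ezrin), a membrane and actin linker studied in osteosarcoma metastasis, was at 71.4 and 51.6 against 91.6 and 84.9. Its difference of -0.53 ± 0.28 missed the threshold (adjusted p = 0.11). The corrected difference of -0.77 passed (adjusted p = 0.0064), as did the difference of -1.06 with a common sum (adjusted p = 0.003) and the difference of -0.75 without 143B NC 1 (adjusted p = 7.5e-06).

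Glycolysis and hypoxia genes were mostly higher in 143B. ENO1 (enolase) was at 6737 and 3810 scaled FPKM in 143B and at 871 and 939 in HOS (2.48 ± 0.35, adjusted p = 0.0003, corrected 1.16). ALDOA (aldolase) was at 4530 and 2343 against 494 and 600.2 (2.58 ± 0.37, corrected 1.08), and PFKFB4, which makes the activator of phosphofructokinase, at 12.8 and 9.15 against 1.03 and 0.817 (2.62 ± 0.23, corrected 1.55). Of 32 tested members 23 were higher and 4 lower, with a median of 1.42, and after the correction 20 and 7, with a median of 0.63. Leaving out either HOS library gave 14 and 2, and leaving out 143B NC 2 gave 21 and 8. For ENO1 and ALDOA, with GC contents of 58.9% and 60.8%, 143B NC 1 stood well above 143B NC 2.

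Serine synthesis was led by 1 enzyme. PHGDH, which takes a glycolysis intermediate into serine, was at 3644 and 2052 scaled FPKM in 143B and at 112 and 125 in HOS, a 24.1-fold ratio of means (4.52 ± 0.34, adjusted p = 3.0e-05, corrected 3.26). SHMT2, the mitochondrial enzyme that takes a carbon from serine, was at 412 and 235 against 68.4 and 73.9 (2.12 ± 0.32, corrected 1.24). The list of 28 serine, one-carbon and ATF4 target genes held 12 higher and 10 lower, and after the correction 10 and 6, with a median of 0.04, so that PHGDH stood apart from most of its list. The counts were 7 and 2 without HOS NC 1 and 9 and 2 without HOS NC 2.

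TK1, the cytosolic thymidine kinase whose activity 143B is known to lack, was still listed, at 106 and 57.8 scaled FPKM in 143B and at 41.4 and 52.8 in HOS. Its difference of 0.73 ± 0.33 missed the threshold (adjusted p = 0.071), passed without 143B NC 2 at 1.17 (adjusted p = 4.6e-12), and after the correction was -0.89 (adjusted p = 0.00083). UPP1, a uridine phosphorylase, was at 389 and 222 against 26.3 and 31.4 (3.31 ± 0.32, adjusted p = 7.7e-05, corrected 2.39). CDA, a cytidine deaminase, was at 0.547 and 0.263 against 6.01 and 7.62 (-2.48 ± 0.21, corrected -3.57). Of 27 tested thymidine and pyrimidine enzymes 8 were higher and 8 lower, and after the correction 9 and 9. The counts were 3 and 4 without HOS NC 1 and 4 and 5 without HOS NC 2.

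In sterol synthesis HMGCS1, an early enzyme, was at 6.71 and 11.1 scaled FPKM in 143B and at 66.6 and 56.7 in HOS (-2.69 ± 0.29, corrected -1.51). Of 26 tested genes of cholesterol and fatty acid synthesis 9 were higher and 9 lower, and after the correction 7 and 11. The counts were 4 and 7 without HOS NC 1. Of 16 tested retinoid and aldehyde enzymes 10 were higher and 4 lower, with a median of 0.89, and after the correction 4 and 6, with a median of -0.12. The counts were 4 and 4 without HOS NC 1, 6 and 4 without HOS NC 2, and 6 and 5 with scaling to a common sum. The members lower in both fits included ALDH1A2, which makes retinoic acid (-3.16, corrected -3.42), and STRA6, a retinol importer (-2.13, corrected -3.60). Another 5 members of the retinoid list are listed for HOS alone and 0 for 143B alone.

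Mitosis genes were mostly lower in 143B. NUSAP1, a spindle protein, was at 17.8 and 29.1 scaled FPKM in 143B and at 159 and 138 in HOS (-2.65 ± 0.30, adjusted p = 0.00014, corrected -1.70), and NUF2, a kinetochore subunit, at 3.10 and 6.29 against 35.1 and 32.5 (-2.67 ± 0.31, corrected -1.45). ANLN and CENPF, of the cleavage furrow and the kinetochore, were both lower by 2.62 (corrected -1.46 and -1.55). Of 32 tested members 7 were higher and 20 lower, with a median of -1.36, and after the correction 6 and 20, with a median of -0.61. The counts were 2 and 16 without HOS NC 1 and 3 and 16 without HOS NC 2. The list has a median GC content of 45.4%. Of 33 tested DNA replication genes 12 were higher and 11 lower, and after the correction 13 and 9. The counts were 5 and 3 without HOS NC 1, 5 and 5 without HOS NC 2, and 7 and 13 with scaling to a common sum. CDT1 of that list, a licensing factor of replication with GC-rich transcripts, was higher by 2.81 ± 0.32 (corrected 1.13).

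Cell cycle regulators differed gene by gene. CDKN1A (p21), an inhibitor of cyclin-dependent kinases, was at 149 and 101 scaled FPKM in 143B and at 7.26 and 7.59 in HOS (3.88 ± 0.28, adjusted p = 2.5e-05, corrected 2.63). CCND2, a D-type cyclin, was at 5.63 and 5.20 against 0.175 and 0.206 (2.43 ± 0.18, corrected 3.02), and CDKN2C, an inhibitor of its kinases, was lower by 1.44 ± 0.25 (corrected -2.67). Of 22 tested CDK inhibitors, cyclins and RB genes 9 were higher and 9 lower, and after the correction 8 and 6. The counts were 6 and 4 without HOS NC 1 and 7 and 8 without HOS NC 2. CDKN2A is listed in neither table, and its neighbour MTAP is listed for 143B alone at 0.03 and 0.10 FPKM.

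Cytokine and NF-kB target genes were mostly higher in 143B. CXCL8 (interleukin-8), a chemokine known to rise with RAS, was at 9.53 and 9.77 scaled FPKM in 143B and at 0.825 and 0.353 in HOS (2.76 ± 0.22, adjusted p = 3.7e-05, corrected 4.16). IL11, a cytokine of the interleukin-6 family that acts on bone, was at 36.7 and 26.2 against 4.14 and 4.34 (2.61 ± 0.26, corrected 1.67). CSF3 (G-CSF) is the 1 member listed for 143B alone, at 8.43 and 10.8 FPKM. For HOS alone 5 members are listed, CXCL12, a chemokine of stroma, among them, at 4.63 and 3.87 FPKM. Of 24 tested members 17 were higher and 2 lower, and after the correction 14 and 7. The counts were 8 and 1 without HOS NC 1, 11 and 1 without HOS NC 2, 11 and 3 with either 143B library left out, and 8 and 2 with scaling to a common sum.

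Interferon-stimulated genes tended to be listed for HOS. IFIT3 was at 0.694 and 1.27 scaled FPKM in 143B and at 21.7 and 18.7 in HOS (-3.43 ± 0.24, adjusted p = 2.5e-05, corrected -2.67), and IFITM1 at 4.98 and 2.64 against 23.1 and 21.2 (-2.31 ± 0.29, corrected -2.70). ISG20 and IFITM2 went the other way, by 2.70 ± 0.30 and 2.25 ± 0.34 (corrected 1.96 and 1.42). Of 22 tested members 7 were higher and 8 lower, and after the correction 4 and 12. The counts were 3 and 5 without HOS NC 1. Another 11 members, IFIT1, IFIT2, SAMD9 and IFI44 among them, are listed for HOS alone, IFIT1 at 10.6 and 9.71 FPKM, and none for 143B alone. Over all genes, 1003 of the 12810 listed for HOS and 893 of the 12700 listed for 143B stand in that table alone. Listing also takes in the sgNAT10 libraries of the line.

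B2M, the constant chain of class I antigen-presenting molecules, was at 181 and 208 scaled FPKM in 143B and at 1251 and 1122 in HOS (-2.60 ± 0.28, adjusted p = 0.00011, corrected -1.42), while TAP2, a peptide transporter, was higher by 2.12 ± 0.28 (corrected 2.19). Over the 26 tested antigen presentation genes 8 were higher and 4 lower, and after the correction 8 and 10. The counts were 16 and 7 without 143B NC 2, 4 and 3 without HOS NC 1 and 5 and 3 without HOS NC 2. Of 8 tested genes of caveolae and lipid rafts 3 were higher and 2 lower, and after the correction 2 and 5. The counts were 2 and 2 with either HOS library left out and 5 and 3 without 143B NC 2. The 2 lower members, the caveolin genes CAV1 and CAV2, which shape membrane pits, were lower by 1.84 and 2.68 (corrected -1.31 and -1.54).

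The count of HOX genes turned with the correction for base composition. Of 31 tested, 14 were higher and 2 lower as scaled, and after the correction 4 were higher and 12 lower, with the median moving from 0.53 to -0.29. Before the correction, 6 were higher and 1 lower with either HOS library left out, 18 and 6 without 143B NC 2, and 7 and 6 with scaling to a common sum. HOXB8 and HOXB4 stayed higher in both fits, HOXB8 at 66.0 and 47.5 scaled FPKM against 5.31 and 5.27 (3.18 ± 0.26, adjusted p = 4.4e-05, corrected 1.93) and HOXB4 by 2.37 ± 0.29 (corrected 1.65).

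**Figure D4:**
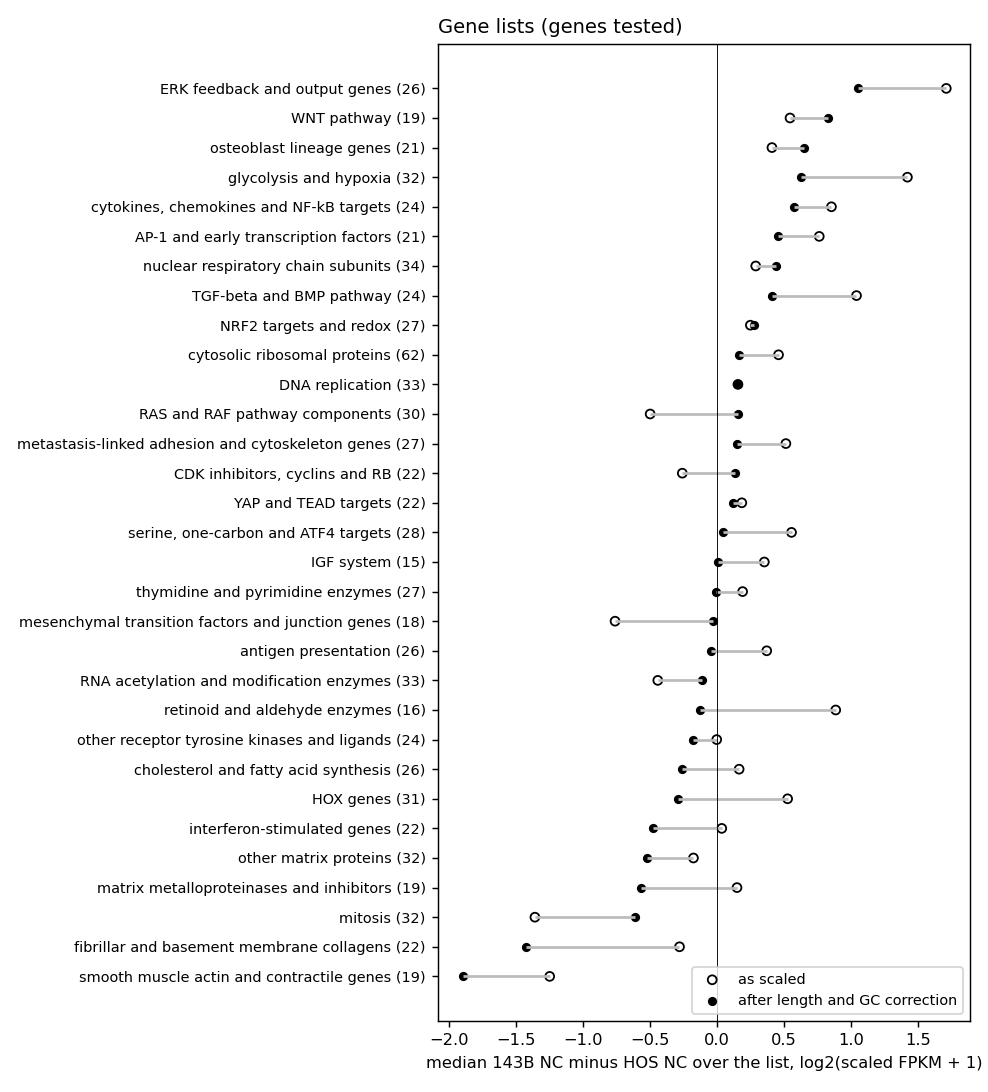
Shown are gene lists with at least 15 tested members (the number in brackets), apart from a list that is not reported here. The horizontal axis gives the median 143B NC minus HOS NC difference on the log2(scaled FPKM + 1) scale. Open circles are as scaled and filled circles after the length and GC correction. ERK feedback and output genes lie farthest to the right in both (1.71 and 1.05) and contractile genes farthest to the left after the correction (-1.90). HOX and retinoid genes change sign, as do several other lists, among them the RAS and RAF pathway, metalloproteinases and interferon-stimulated genes.

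Most markers fixed for the labelled cell type were listed in both lines, some at low levels. Of 9 markers of osteosarcoma or mesenchymal lines, 8 are listed for 143B (COL1A2 is not) and 9 for HOS, and VIM (vimentin) was the highest, at 1790 and 1700 scaled FPKM in 143B and 628 and 705 in HOS. Of 5 epithelial markers, CDH1, KRT5 and KRT14 are in neither table. EPCAM, an epithelial adhesion protein, was higher in HOS, at 15.95 and 13.4 against 1.16 and 1.83 in 143B (-2.66 ± 0.24, adjusted p = 6.0e-05, corrected -2.29). KRT18, a keratin also found outside epithelia, was at 4052 and 1986 in 143B and at 317 and 359 in HOS (3.07 ± 0.37, corrected 1.94). CD68, a lysosomal protein used as a macrophage marker, was at 169 and 100.4 against 13.4 and 13.6 (3.18 ± 0.30, corrected 2.26), while the blood markers PTPRC, CD3D, CD3E and HBB are in neither table. The summed levels of the other marker sets were between 0 and 19.3 scaled FPKM in each library, the highest being the epithelial set in HOS.

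Genes listed in 1 table alone have no value in the other line, so they carry no fold and no test. The table of 143B alone lists 893 genes, 221 of them at a mean of at least 1 FPKM in the NC libraries and 25 at 5 or more. That of HOS alone lists 1003 genes, of which 543 reached 1 FPKM and 84 reached 5. The median GC content of those at 1 FPKM or more was 59% for 143B and 43.4% for HOS. The highest for 143B were NTSR1, a neurotensin receptor, at 54.0 and 47.2 FPKM, SERPIND1 (heparin cofactor II) at 18.99 and 22.4, and SH2D2A, a T cell adaptor, at 17.2 and 16.1. They were followed by ESX1, MYEOV, TAGLN3, C2CD4C, CSF3, CDK5R2, GATD3A and SHANK1, between 14.4 and 7.05 FPKM by their means.

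For HOS, the highest were COL3A1, COL1A2 and LUM, then SCG2 (secretogranin II) at 35.1 and 31.2 FPKM, CD248 (endosialin, a stromal surface protein) at 26.8 and 32.8, and the interferon-induced GTPase GBP1 at 29.6 and 23.9. ANXA3, MRGPRF, MATN2, LXN, LRRC17 and MEIOB followed, between 19.3 and 15.6 FPKM by their means. COL16A1, a collagen, was at 12.2 and 13.99 FPKM and the fibroblast surface marker THY1 at 13.2 and 15.3.

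By position, the corrected differences were close to 0 for whole chromosomes, with medians from -0.25 on chromosome 15 to 0.24 on chromosome 20. Of 267 stretches of 40 neighbouring tested genes, the lowest lay on the X chromosome, at X:47233009-53088540 (USP11 to TSPYL2, GRCh38), with a median of -1.16 (-0.24 before the correction), 36 genes lower in 143B and 0 higher. The next lowest, X:276356-18984114 (PLCXD1 to PHKA2), had a median of -1.04 (-0.90 before it), with 30 lower and 3 higher. The highest was 1:109483905-113982253 (ATXN7L2 to OLFML3), with a median of 0.95 (0.71 before the correction), 30 higher and 3 lower, followed by 2 adjoining stretches at the end of chromosome 11 (0.69 and 0.67), the last of which holds HRAS. The order of the stretches is that of the corrected values, and others lie lower or higher before the correction. Leaving out each library in turn kept the corrected median of the lowest stretch between -1.23 and -1.10 and that of the highest between 0.91 and 1.03. Neighbouring genes are not replicates, and DNA copy number was not measured here.

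**Figure D5:**
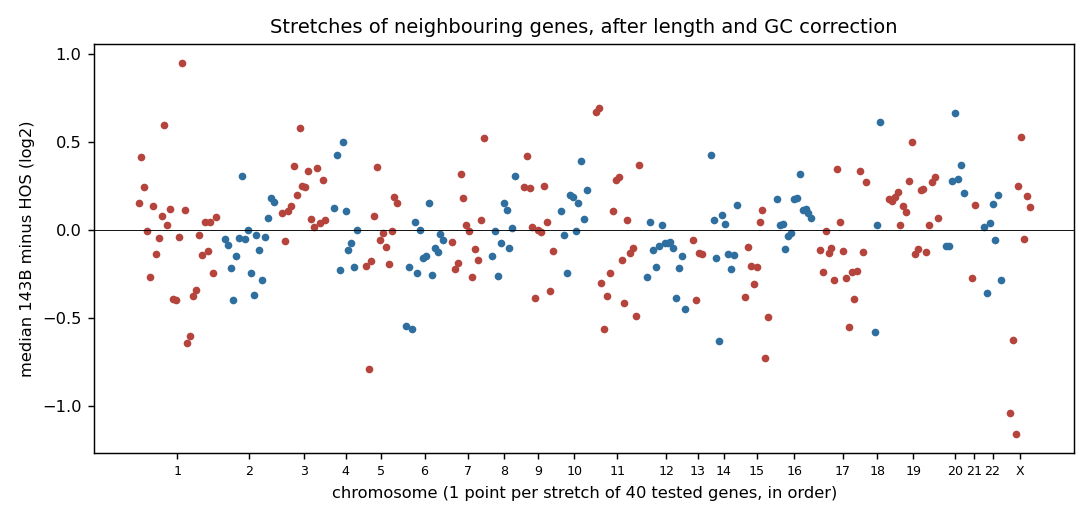
Each point is the median corrected difference (143B minus HOS, log2) of a stretch of 40 neighbouring tested genes, in order along each chromosome, with colours alternating between chromosomes. Most points lie within 0.5 of 0, and the lowest are on X (-1.16 and -1.04) and the highest on chromosome 1 (0.95).

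The sgNAT10 libraries of the same lines were not used for any call above. In them, 3287 of the 4230 genes higher in control 143B (77.7%) and 3216 of the 4190 lower ones (76.8%) differed in the same direction between the lines, with 49.0% of all tested genes above 0. These counts and the differences below are without the correction for base composition. The sgNAT10 libraries stand in the same tables by line, so line and table cannot be told apart there either. The part of GC content in this agreement was not tested. COL1A1 was at 2.77 and 1.67 scaled FPKM in 143B sgNAT10 and at 304 and 260 in HOS sgNAT10. PLAU stood at 46.0 and 44.0 against 29.4 and 28.7, a difference of 0.61 where the controls differed by 5.73. Some named genes turned sign against the controls. Lower in 143B sgNAT10 than in HOS sgNAT10 were PLAT (-3.24), CDKN1A (-0.91), SNAI1 (-1.68), HOXB8 (-1.08), IER3 (-0.81), MMP14 (-0.80), ADAM19 (-0.93), JUN (-0.37) and DUSP4 (-0.02). CAV1 (1.64) and CAV2 (0.09) were higher. Other ERK genes named above differed less than in the controls, SPRY4 by 0.07, PHLDA1 by 0.28, ETV5 by 0.45, DUSP6 by 1.23 and DUSP5 by 1.435. ETV4 differed by 3.50, and DUSP10 stayed lower (-0.87). The difference between the sgNAT10 contrast and the control contrast was not tested.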

How the data were processed

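RNA sequencing of 143B and HOS cells was deposited as FPKM, 1 table for each line. Bowtie2, RSEM and DESeq2 are the tools, and GRCh38 the build, found in the submitters' processing notes, which give no roles here. The FPKM values were computed by the authors and are normalized within a library, so depth is unknown and values carry no counting interval. Each table lists only genes above 0.5 FPKM in at least 2 libraries of its line.

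The tables were joined by symbol, the 4 control columns were scaled by median ratios (factors 0.749, 1.03, 1.14 and 1.16), and log2(scaled FPKM + 1) was compared between lines by limma (version 3.58.1, under R 4.3.3), with the prior spread allowed to follow intensity and only the control libraries in the fit, for genes at 1 or more scaled FPKM in at least 2 libraries. P-values were adjusted by Benjamini-Hochberg over all genes tested, with a threshold of 0.05. Adding 1 understates the change of low genes. The exact permutation test of 2 libraries against 2 cannot go below p = 0.33, so single genes were tested in the limma model only. The correction for base composition removed, per library, natural splines (4 degrees of freedom each) of GC content and log2 transcript length. On simulated data with 200 changed genes among 11349, in 10 runs, 1.4% of genes changed by 1 on the log2 scale and 54.7% of those changed by 2 were recovered, with 0.669% false calls. The simulated noise was independent between genes and lacked the trend with GC content that the libraries share. Far fewer genes were changed than were called here, so these rates do not carry over to the calls above.

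Gene lists and members were chosen with earlier results of these data known. Named genes are NAT10, a set of anchor genes, the 15 largest differences in each direction, the 10 largest at 50 or more FPKM, the 4 largest called members of each list, members of lists under 30 genes and the 12 highest genes of each table alone. Other pseudocounts, filters, scalings, moderation, a replicate block and leaving out each library were tried. Coordinates are RefSeq GRCh38, and promoters are from RefSeq GRCh38.p14. There were 27 symbols made of X and digits, which are not named. Some genes that the rule names are not reported here.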

Additional observations from a re-analysis of the deposited data

How the results depend on the processing

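The count of 8420 differing genes lay between 4039 (without HOS NC 1) and 9461 (without 143B NC 2) when 1 library was left out, and was 4955 without HOS NC 2. After the length and GC correction it lay between 4576 and 8532, with 4842 without HOS NC 2. The lone library left in a group is assumed to vary like the other group, whose spread then sets the test, and HOS libraries were closer to each other than 143B libraries. At least 2-fold, 6141 genes became 3975 with a pseudocount of 5, 2382 with the correction, and 3995 to 6641 with 1 library left out (after the correction 1916 and 2701 without 143B NC 1 and NC 2, and 2200 and 2385 without HOS NC 1 and NC 2). Other pseudocounts, filters, scalings and moderation settings kept the count of differing genes within 1.5 times.

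The labels number the libraries 1 and 2 in both lines, but the numbers are not said to pair them, and the deviations of same-numbered libraries had a correlation of -0.65. With the number as a replicate block 7046 genes differed (6107 at least 2-fold), with block and correction 7111 (2382 at least 2-fold). With crossed pairs, an alternative added after the data were seen, 8958 differed.

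Of 119 named genes, NRAS and TK1 changed sign. NRAS went from -0.55 to 0.72 under the correction, also with the replicate block, and to 0.711, 0.795, 0.776 and 0.676 without 143B NC 1, 143B NC 2, HOS NC 1 and HOS NC 2. TK1 went from 0.73 to -0.893, also with the block, and to -0.923, -0.838, -0.983 and -0.833 in the same order. The cause was not tested. The calls of EZR, NAT10 and RUNX2 also changed under at least 1 setting. Leaving out 1 library left 105 to 112 of the named genes testable, since fewer libraries could pass the filter. Depth, which FPKM do not keep, limits the low genes in a way that cannot be given here.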
